A study of Mus musculus with 28 samples.

Results

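The fibrillar collagens described here were 7 genes chosen by symbol, *Col1a1*, *Col1a2*, *Col3a1*, *Col5a1*, *Col5a2*, *Col5a3*, and *Col11a1*, of 56980 genes in a bulk count table and 32285 genes in 3 single-cell matrices. All 7 were found in both data types and passed the filter on low counts in the bulk data. The samples were jugular veins of male and female C57BL/6 mice that had all undergone subtotal nephrectomy, the removal of most kidney tissue, before a carotid–jugular arteriovenous fistula (AVF) was made, in which the carotid artery feeds directly into the joined jugular vein. Bulk RNA sequencing covered the contralateral jugular veins of operated mice (7 libraries) and the outflow veins of AVFs labelled early (day 3, 8 libraries), mid (day 10, 5 libraries), and late (day 21, 5 libraries), with 1 vessel per library. The sexes were unequally spread: 5 females and 2 males gave contralateral veins, 3 and 5 early AVFs, and 3 and 2 each of mid and late AVFs. Single-cell RNA sequencing covered 1 contralateral, 1 early, and 1 late library, each from a pool of 10 vessels of both sexes, whose labels name the stage but no day. The methods of the study give each stage as a mean day with a spread, and place the early and late vessels used for single cells some days later, on average, than those of the same stage used in bulk. The sources used here gave neither the ages of the mice nor which contralateral vein came from which AVF mouse. The questions addressed were how the transcripts of each fibrillar collagen chain differed between the native vein and the AVF at each stage, whether the chains kept their proportions, and which cells carried them.

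Fibrillar collagens are triple helices that assemble into the banded fibrils giving a vessel wall its tensile strength. Type I collagen is built from the chains encoded by *Col1a1* and *Col1a2*, type III is a homotrimer of the *Col3a1* chain found in distensible tissues such as veins and skin, and type V (*Col5a1*, *Col5a2*, *Col5a3*) and type XI (*Col11a1* among others) are minor collagens that lie inside heterotypic fibrils, where they start fibril formation and limit fibril diameter. Type XI collagen is best known from cartilage, and in the vessel wall these genes are transcribed mainly by fibroblasts and smooth muscle cells.

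The 7 genes lie on 6 mouse chromosomes in the GRCm38 annotation, and only *Col3a1* (chr1:45311538-45349706, plus strand) and *Col5a2* (chr1:45374321-45503282, minus strand) are neighbours, 24614 bp apart with no annotated gene between them. A promoter window of 250 bases before the start of the RefSeq gene model (GRCm38.p6) was read for 5 of the 7 members; *Col1a1* and *Col5a2* had no entry. The windows of 3 members are shown because they belong to the major chain with the highest level (*Col3a1*, chr1:45311288-45311537, plus strand), to the type V chain whose ratio to *Col1a1* did not overlap between early AVFs and native veins (*Col5a1*, chr2:27886175-27886424, plus strand), and to the minor chain with the largest fold change (*Col11a1*, chr3:114030290-114030539, plus strand). Capitals mark matches on either strand to 4 short motifs, the CCAAT box, the GC box motif GGGCGG, the TATA box motif TATAAA, and the Smad half-site CAGACA, none of which overlapped another in the windows shown.
Col3a1: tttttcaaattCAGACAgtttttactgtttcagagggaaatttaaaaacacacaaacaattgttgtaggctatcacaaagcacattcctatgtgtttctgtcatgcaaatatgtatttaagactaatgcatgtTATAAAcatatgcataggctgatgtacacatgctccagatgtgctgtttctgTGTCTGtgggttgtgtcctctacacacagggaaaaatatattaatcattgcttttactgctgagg
Col5a1: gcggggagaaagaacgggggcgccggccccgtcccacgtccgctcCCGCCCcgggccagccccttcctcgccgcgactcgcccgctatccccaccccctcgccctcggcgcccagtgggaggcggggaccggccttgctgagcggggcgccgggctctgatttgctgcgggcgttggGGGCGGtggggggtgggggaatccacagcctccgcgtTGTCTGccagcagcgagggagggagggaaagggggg
Col11a1: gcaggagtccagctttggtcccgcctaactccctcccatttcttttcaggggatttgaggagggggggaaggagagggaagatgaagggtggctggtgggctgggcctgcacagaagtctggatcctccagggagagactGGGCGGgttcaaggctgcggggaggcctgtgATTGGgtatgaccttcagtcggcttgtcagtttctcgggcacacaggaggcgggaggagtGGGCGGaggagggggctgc
The *Col3a1* window had a G+C content of 35.2%, a TATAAA match starting 117 bases before the start, and 2 CAGACA matches at 239 and 65 bases before it. The *Col5a1* window had a G+C content of 76.4%, 2 GGGCGG matches at 205 and 73 bases, and 1 CAGACA match at 36 bases, and the *Col11a1* window had 62.4% G+C, 2 GGGCGG matches at 110 and 19 bases, and 1 CCAAT match at 79 bases. Among 32851 RefSeq promoter windows of the same length, 33.8% held CCAAT, 32.7% GGGCGG, 12.4% TATAAA, and 17.1% CAGACA. Such letter matches occur in many promoters and describe the windows only.

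Bulk libraries held 20254173 to 67457501 counts, and the 2 deepest were both early AVFs (5 and 6). Contralateral libraries detected 11958 to 18283 genes and AVF libraries 17514 to 26771. Summed levels of lists of marker genes also moved with the groups: fibroblast markers (9 genes) had a median of 17685 CPM (counts scaled to a common library total) in contralateral veins and 4086, 10106, and 11177 CPM in early, mid, and late AVFs; smooth muscle markers (7 genes) 4807, 402, 683, and 755 CPM; and macrophage markers (8 genes) 1406, 4744, 2876, and 2862 CPM. The fibroblast sum leaned on *Dcn*, which alone had medians of 11561, 1494, 4003, and 4898 CPM in the same order. Of the 9 fibroblast markers, 6, 1, and 0 were called lower than in contralateral veins in early, mid, and late AVFs (edgeR, criteria below). Endothelial markers (8 genes) had medians of 2759, 547, 713, and 767 CPM in the same order, adipocyte markers (5 genes) 1454, 377, 257, and 244 CPM, and Schwann cell markers (6 genes) 257, 136, 180, and 354 CPM with ranges that overlapped between all groups. Skeletal muscle markers (8 genes) had medians of 12.7, 339, 1796, and 746 CPM, with single AVF libraries up to 10601 CPM. The part of these lists in the results below was not tested, and in whole vessels fewer cells of a type and less RNA per cell cannot be told apart.

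**Figure D1:**
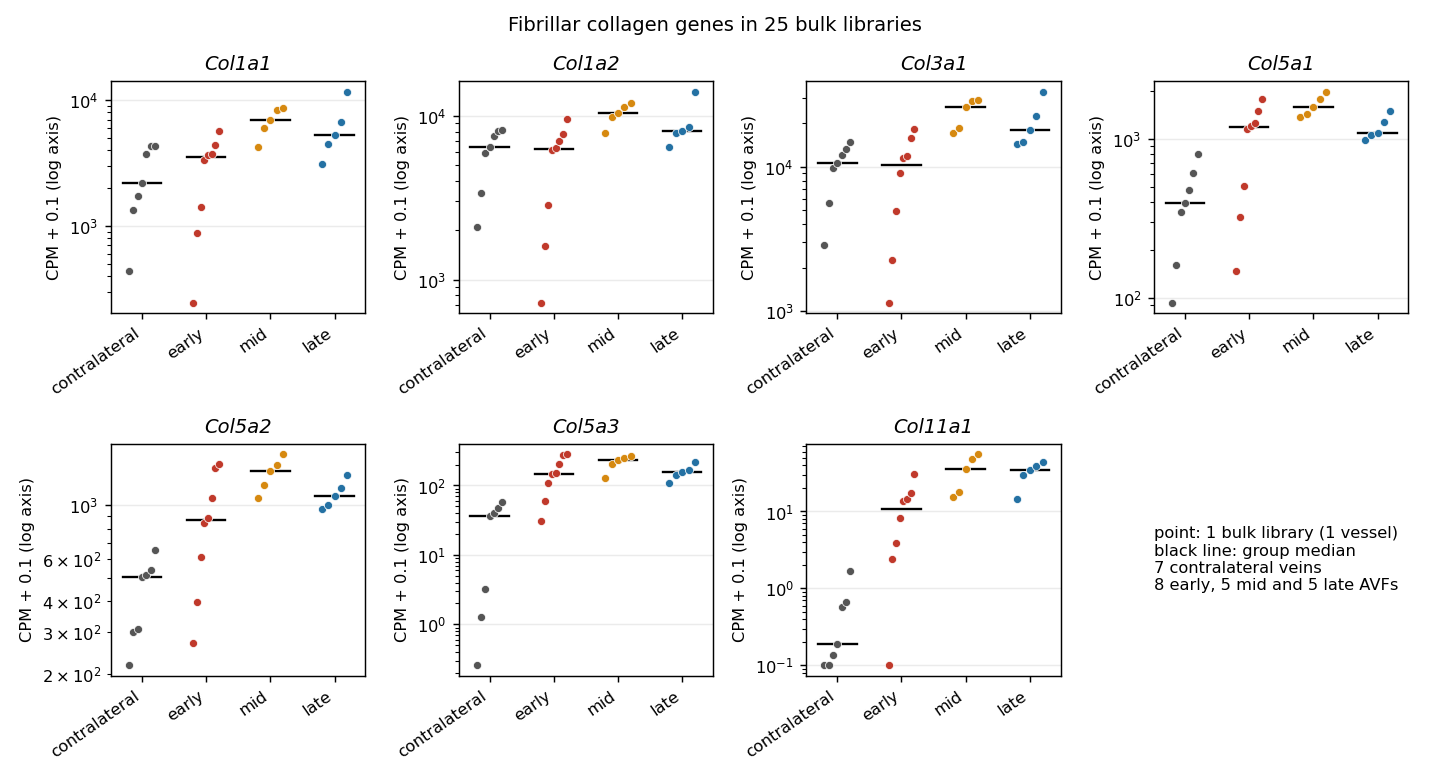
Level of each fibrillar collagen gene in the 25 bulk libraries, in CPM with 0.1 added, on a log axis, by group. Each point is 1 vessel, points are ordered by value within a group, and the horizontal line is the group median; *Col3a1*, *Col5a1*, *Col5a2*, *Col5a3*, and *Col11a1* of mid AVFs lie above all contralateral veins, and 3 contralateral veins have *Col5a3* below 4 CPM.

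Per kilobase of exon, the order of the members' median levels in contralateral veins was *Col3a1* (1075 CPM per kb), *Col1a2* (519), *Col1a1* (336), *Col5a2* (52.9), *Col5a1* (46.8), *Col5a3* (5.37), and *Col11a1* (0.00687). The ranges of *Col1a2* (168 to 655 CPM per kb) and *Col1a1* (67.2 to 664) overlapped, as did those of *Col5a2* (22.7 to 68.3) and *Col5a1* (11.01 to 94.7), so these neighbours in the order were not separated by their spread. In early, mid, and late AVFs *Col1a1* stood above *Col1a2* at medians of 535 against 503, 1062 against 833, and 812 against 649 CPM per kb, and *Col5a1* stood above *Col5a2* at 139 against 90.3, 186 against 145, and 129 against 114 CPM per kb, again with overlapping ranges. Lengths were those of all annotated exons merged (12426 bp for *Col1a2* and 6563 bp for *Col1a1*), and the order depends on them. Without division by length *Col1a2* exceeded *Col1a1* in every bulk library (at most 0.832 *Col1a1* counts per *Col1a2* count). The late medians of *Col5a1* and *Col5a2* were then 1094 and 1097 CPM. The summed CPM of all 7 genes, written as a percent of the scaled library total, had a median of 2.06% in contralateral veins (0.579% to 2.82%). The median was 2.29% in early (0.260% to 3.57%), 4.596% in mid (3.34% to 5.32%), and 3.40% in late AVFs (2.62% to 6.18%).

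The levels of the major chains were spread widely within the native vein and the early AVF. *Col1a1* had a lowest, median, and highest level of 441, 2205, and 4358 CPM in contralateral veins and 246, 3513, and 5729 CPM in early AVFs. In mid AVFs its levels were 4269, 6003, 6969, 8322, and 8698 CPM, and in late AVFs 3117, 4498, 5328, 6748, and 11694 CPM. Early AVFs 5, 6, and 7 held the 3 lowest early values (1418, 878, and 246 CPM), and contralateral vein 35 the lowest of its group, so that early AVFs spanned the whole range of the native veins.

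*Col1a2*, which supplies the partner chain of type I collagen, had a lowest, median, and highest level of 2082, 6449, and 8141 CPM in contralateral veins and 722, 6254, and 9540 CPM in early AVFs. It had 7853, 9860, 10350.1, 11274, and 11976 CPM in mid and 6489, 7800, 8059, 8571, and 14056 CPM in late AVFs. *Col3a1* had 2865, 10555, and 14695 CPM in contralateral veins and 1146, 10239, and 18181 CPM in early AVFs. All 5 mid AVFs (16984 to 28840.5 CPM) lay above every contralateral vein for *Col3a1*, whereas the lowest late AVF (14271 CPM) lay below the highest native vein.

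None of the 3 major chains passed the test against the contralateral vein at any stage (edgeR quasi-likelihood test over 12673 genes; a call needed a Benjamini-Hochberg adjusted *p* under 0.01 together with a log2 fold change of 1 or more in size). In early AVFs the log2 fold changes were 0.18 ± 0.47 (SE) for *Col1a1*, -0.18 ± 0.38 for *Col1a2*, and -0.08 ± 0.41 for *Col3a1*, with adjusted *p* from 0.789 to 0.920. In mid AVFs they were 1.41 ± 0.53 for *Col1a1* (adjusted *p* = 0.0833), 0.79 ± 0.42 for *Col1a2* (adjusted *p* = 0.246), and 1.27 ± 0.47 for *Col3a1* (adjusted *p* = 0.0745). In late AVFs they were 1.28 ± 0.53, 0.60 ± 0.42, and 1.06 ± 0.47, with adjusted *p* of 0.124, 0.411, and 0.152. Without adjustment, 0 of the 3 in early AVFs had an edgeR *p* under 0.05, while *Col1a1* and *Col3a1* did in mid (0.0136 and 0.0114) and late AVFs (0.0232 and 0.0318).

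The minor chains had larger estimated fold changes than the major ones, starting at the early stage. In late AVFs the log2 estimates of *Col5a1* (1.51 ± 0.46) and *Col5a2* (1.36 ± 0.32) were close to that of *Col1a1* (1.28 ± 0.53). *Col5a3*, the type V chain with the most restricted tissue distribution, had 0.157, 1.18, 3.15, 36.6, 39.9, 47.3, and 57.6 CPM in contralateral veins 632, 31, 35, 633, 34, 27, and 28, so that 3 of the 7 veins held almost no transcript (4, 27, and 90 counts). Early AVFs had a lowest, median, and highest *Col5a3* level of 30.2, 147, and 281 CPM. Mid AVFs had 129, 203, 232, 247, and 269 CPM and late AVFs 107, 142, 155, 170, and 219 CPM, both above every contralateral vein, while 1 early AVF (early 6) lay within the native range.

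*Col11a1*, whose chain forms type XI collagen, was close to absent from the native vein: the contralateral libraries held 0, 0, 1, 2, 9, 12, and 46 counts, at most 1.59 CPM. Early AVFs had a lowest, median, and highest level of 0, 10.8, and 30.9 CPM, with 0 counts in early 6 and 97 to 785 counts in the other 7. Mid AVFs had 15.2, 17.7, 35.5, 48.6, and 55.3 CPM and late AVFs 14.6, 29.6, 34.6, 38.3, and 43.5 CPM. Every mid and late AVF therefore exceeded every native vein, and early AVFs overlapped them through early 6 alone. As *Col11a1* passed the low-count filter only through AVF libraries, a lower level in AVFs could not have been found for it.

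The other type V chains moved less. *Col5a1*, the chain present in nearly all type V molecules, had a lowest, median, and highest level of 93.5, 398, and 804 CPM in contralateral veins and 149, 1183, and 1775 CPM in early AVFs. It had 1360, 1422, 1580, 1784, and 1977 CPM in mid and 979, 1054, 1094, 1274, and 1487 CPM in late AVFs, in both cases without overlap with the native veins. *Col5a2*, the second chain of the common type V trimer, had 217, 507, and 655 CPM in contralateral veins, 269, 867, and 1482 CPM in early AVFs, 1076 to 1626 CPM in mid, and 969 to 1329 CPM in late AVFs, again without overlap at mid and late. Annotated antisense transcripts overlap *Col5a1* (*2810430I11Rik* and *Gm13372*) and *Col5a3* (*Gm26274*), and the counting was not stated to use strand. Annotated genes on the same strand overlap *Col1a2* (*Gm43921*), *Col3a1* (*Gm47302*), and *Col5a2* (*Gm38211*).

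In total 2 members were called higher in early AVFs against contralateral veins, while 6.17% of all 12673 genes were called higher in that comparison. They were *Col11a1* (log2 fold change 4.83 ± 1.09, adjusted *p* = 0.00186) and *Col5a3* (2.55 ± 0.71, adjusted *p* = 0.00988). *Col5a1* (1.26 ± 0.42, adjusted *p* = 0.0293) and *Col5a2* (1.01 ± 0.29, adjusted *p* = 0.0132) missed the threshold. The call of *Col5a3* was at the threshold: when each of the 25 libraries was left out in turn it held in 4 fits, those without contralateral 28, contralateral 632, early 6, or early 7, with adjusted *p* up to 0.0219 in the others, and it was lost with RLE normalization (adjusted *p* = 0.0109), with library totals alone (0.0101), with sex as a covariate (0.0158), and with library totals taken over all genes (0.0109), the last an alternative chosen after seeing the data. With the contralateral and early libraries fitted alone, both calls were lost (edgeR adjusted *p* = 0.0432 for *Col11a1* and 0.0576 for *Col5a3*), while that of *Col11a1* held without any single library. *Col5a2* gained a call without contralateral 632, early 5, early 6, or early 7, and *Col5a1* without early 7. No member was without overlap between early AVFs and native veins, against 4.47% of all genes higher without overlap.

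Mid AVFs had 4 members called higher, against a background of 2.74% of genes. These were *Col11a1* (log2 fold change 6.44 ± 1.203, adjusted *p* = 0.00059), *Col5a3* (3.02 ± 0.77, adjusted *p* = 0.00903), *Col5a1* (1.98 ± 0.46, adjusted *p* = 0.00452), and *Col5a2* (1.64 ± 0.32, adjusted *p* = 0.000989). With *Col3a1* they made 5 members whose mid AVF levels did not overlap the contralateral veins, as did 7.32% of all genes in the higher direction. The *Col11a1* and *Col5a2* calls held without any single library, the *Col5a1* call was lost without mid 12, 13, 14, or 15 (adjusted *p* up to 0.0133), and the *Col5a3* call held in 8 of the 25 fits, those without contralateral 27, 28, 31, or 632 or early 3, 5, 6, or 7 (adjusted *p* up to 0.0211 in the others). The *Col5a3* call was also lost with sex as a covariate (adjusted *p* = 0.0109) and with the contralateral and mid libraries fitted alone (0.0789).

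In late AVFs 2 members were called higher, against a background of 2.49%. *Col11a1* had a log2 fold change of 6.33 ± 1.198 (adjusted *p* = 0.000824) and *Col5a2* one of 1.36 ± 0.32 (adjusted *p* = 0.006). *Col5a1* (1.51 ± 0.46, adjusted *p* = 0.0305) and *Col5a3* (2.58 ± 0.76, adjusted *p* = 0.026) missed the threshold although both, with *Col5a2* and *Col11a1*, made 4 members without overlap with the native veins (6.25% of all genes in the higher direction). The *Col5a2* call was lost without contralateral 28, 31, or 35, without mid 12 or 13, and without any 1 of the late libraries, with adjusted *p* up to 0.0173, while that of *Col11a1* held in all 25 fits and was lost with the contralateral and late libraries fitted alone (adjusted *p* = 0.0134). The comparisons of the 3 stages share the same 7 contralateral veins and are not independent of each other. With the libraries of female mice alone (5 contralateral veins and 3 AVFs per stage) no member was called at any stage by edgeR, and 3, 6, and 6 members had an unadjusted *p* under 0.05 in early, mid, and late AVFs.

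**Figure D2:**
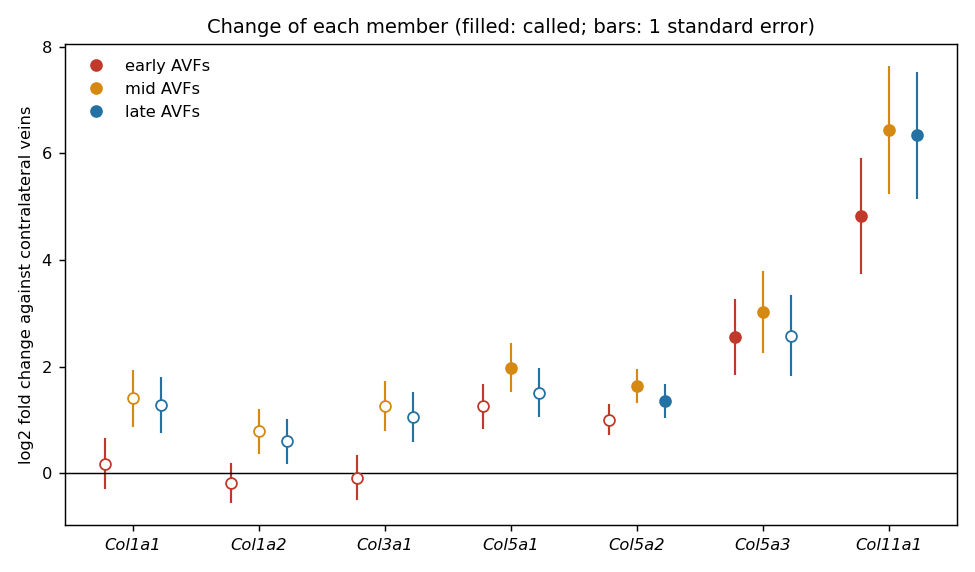
Log2 fold change of each member against contralateral veins in early, mid, and late AVFs from the edgeR fit over all 25 libraries. Points are estimates, bars are standard errors, and filled points mark calls; *Col11a1* stands furthest from 0 at each stage (4.83, 6.44, and 6.33), and the 3 major chains are within 1 standard error of 0 in early AVFs.

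Marker genes of cartilage and bone (10 genes, among them *Col2a1*) were, like *Col11a1*, close to absent from native veins. Their summed level was 0 to 0.175 CPM in contralateral veins, where 8 of the 10 genes had no count in any library, 0.326 to 20.9 CPM in early, 10.9 to 52.6 CPM in mid, and 22.5 to 68.4 CPM in late AVFs. Of the 10 genes 2 passed the low-count filter, and the list was not compared with *Col11a1* library by library. The part of these markers in the bulk level of *Col11a1* was not tested, and the single-cell libraries below give where its transcripts were found.

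No member was called between AVF stages by edgeR or DESeq2, and 3 members from early to mid, 2 from early to late, and 0 from mid to late had an unadjusted edgeR *p* under 0.05. From early to mid the log2 fold changes were between 0.47 ± 0.72 for *Col5a3* and 1.61 ± 0.97 for *Col11a1*, with *Col3a1* at 1.35 ± 0.45 (adjusted *p* = 0.0983), and 0.00789% of all genes were called higher. From early to late they were 1.10 ± 0.51 for *Col1a1*, 0.78 ± 0.41 for *Col1a2*, 1.13 ± 0.45 for *Col3a1* (adjusted *p* = 0.158), 0.03 ± 0.73 for *Col5a3*, 0.26 ± 0.44 for *Col5a1*, 0.35 ± 0.31 for *Col5a2*, and 1.51 ± 0.97 for *Col11a1* (adjusted *p* = 0.559), the largest estimate of the 7, with a background of 0.726% called higher. From mid to late all 7 estimates were between -0.46 and -0.10, and no gene of the 12673 was called in either direction by edgeR (39 genes with an unadjusted *p* under 0.05; 1 call by DESeq2). A group by sex interaction was called by edgeR for 0 members and for 0.103% of all genes (adjusted *p* under 0.05). In that edgeR test 0 members had an unadjusted *p* under 0.05. With 2 males in each of the contralateral, mid, and late groups the test had little power, so no conclusion is drawn from the absence of calls.

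The proportion of one chain to another was compared within each library, which removes the scaling of libraries (7 ratios of counts, each with 0.5 added, in 6 comparisons, exact two-sided permutation test over libraries, Benjamini-Hochberg over 42 tests, threshold 0.05). *Col5a1* per *Col1a1* count had a lowest, median, and highest value of 0.120, 0.180, and 0.212 in contralateral veins and 0.262, 0.363, and 0.605 in early AVFs, with no overlap. It was 0.205 to 0.318 in mid AVFs (median 0.237) and 0.127 to 0.351 in late AVFs (median 0.218), both overlapping the native range. In early AVFs the log2 ratio was 1.16 higher than in contralateral veins (means -1.45 ± 0.35 and -2.61 ± 0.32, SD; exact permutation adjusted *p* = 0.00653), and this call held in all 25 fits that left out 1 library.

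From early to later AVFs 2 bulk ratios of a type V chain to a major chain were lower, *Col5a1* to *Col1a1* and *Col5a2* to *Col3a1*. The log2 ratio of *Col5a1* to *Col1a1* was -0.60 in mid and -0.84 in late relative to early AVFs (exact permutation adjusted *p* = 0.0326 and 0.0272), and in mid AVFs it remained 0.57 above contralateral veins (adjusted *p* = 0.0424, exact permutation). *Col5a2* per *Col3a1*, the pair of neighbouring genes, had the values 0.0306, 0.0390, and 0.108 in contralateral veins, 0.0685, 0.102, and 0.235 in early AVFs, 0.0519 to 0.0657 in mid, and 0.0403 to 0.0769 in late AVFs. Its log2 ratio was 1.27 higher in early AVFs than in native veins (exact permutation adjusted *p* = 0.0272) and lower by 0.95 in mid and 0.98 in late than in early AVFs (adjusted *p* = 0.0424 and 0.0442, exact permutation). Against contralateral veins it was 0.31 higher in mid and 0.29 in late AVFs, neither called (exact permutation adjusted *p* = 0.452 and 0.492). *Col5a1* to *Col1a1* was 0.33 higher in late AVFs than in contralateral veins, also not called (exact permutation adjusted *p* = 0.427).

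*Col5a3* per *Col5a1* was 0.000219, 0.0603, and 0.145 at its lowest, median, and highest in contralateral veins and 0.0931, 0.156, and 0.400 in early AVFs, a log2 difference of 2.75 (exact permutation adjusted *p* = 0.0245). The lowest value came from 4 *Col5a3* counts in contralateral 632, and without that vein the log2 difference was 1.61 (exact permutation adjusted *p* = 0.0286). *Col11a1* per *Col5a1* was at most 0.00264 in contralateral veins and 0.00769 to 0.0342 in mid and 0.0138 to 0.0392 in late AVFs, log2 differences of 5.47 and 5.93 (exact permutation adjusted *p* = 0.0177 for both), and both calls held without any single library. In early AVFs the same log2 ratio was 3.71 higher than in contralateral veins and was not called (exact permutation adjusted *p* = 0.0848), except when early 6 was left out. Within type I collagen, *Col1a1* per *Col1a2* rose from a median of 0.396 (0.212 to 0.576) in contralateral veins to 0.707 in mid (0.544 to 0.738) and 0.661 in late AVFs (0.480 to 0.832), by 0.78 on the log2 scale in both (exact permutation adjusted *p* = 0.0424 and 0.0442). The ratios *Col3a1* to *Col1a1* and *Col5a2* to *Col5a1* were not called in any comparison, and of their unadjusted *p* only that of *Col5a2* to *Col5a1* from mid to late AVFs was under 0.05 (exact permutation *p* = 0.0159, adjusted *p* = 0.0513).

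With early 5 and 6, the deepest early libraries, left out, an alternative chosen after seeing the data, *Col5a1* to *Col1a1* stayed called in early AVFs (log2 difference 1.17), *Col11a1* to *Col5a1* was called at each stage against contralateral veins, and no other ratio was called in any comparison. Leaving out early 3 also ended the calls of *Col5a3* to *Col5a1* and *Col5a2* to *Col3a1* in early AVFs (exact permutation adjusted *p* = 0.053 for both). The *Col5a1* to *Col1a1* call from early to late was lost without early 3 or late 17, that from early to mid without early 3 or mid 9, 13, 14, or 15, and that of mid AVFs against contralateral veins without early 3 or any 1 mid library. The calls of *Col5a2* to *Col3a1* from early AVFs were lost without early 3, 5, 6, or 7 or any 1 mid library in mid and, in late AVFs, also without early 10 or any 1 late library. The calls of *Col1a1* to *Col1a2* were lost without early 3 or mid 9, 13, 14, or 15 in mid AVFs and held in 8 of 25 fits in late AVFs, those without contralateral 632 or 633, early 1, 2, 4, 6, or 10, or late 23. Early libraries took no part in the ratio tests of mid or late AVFs against contralateral veins. Leaving them out changed these calls only through the adjustment of *p*, which was made over all comparisons together. In these tests 3 ratios in mid and 2 in late AVFs kept an unadjusted exact permutation *p* under 0.05 without early 5 and 6. Among females alone no ratio was called, with 2 of the 7 at an unadjusted exact permutation *p* under 0.05 at each stage against contralateral veins. Between stages, with 3 females per stage, the exact test could not give a *p* under 0.05, so the absence of calls was fixed in advance. Against contralateral veins the few females also limited how small *p* could be, so no conclusion is drawn from the absence of calls.

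**Figure D3:**
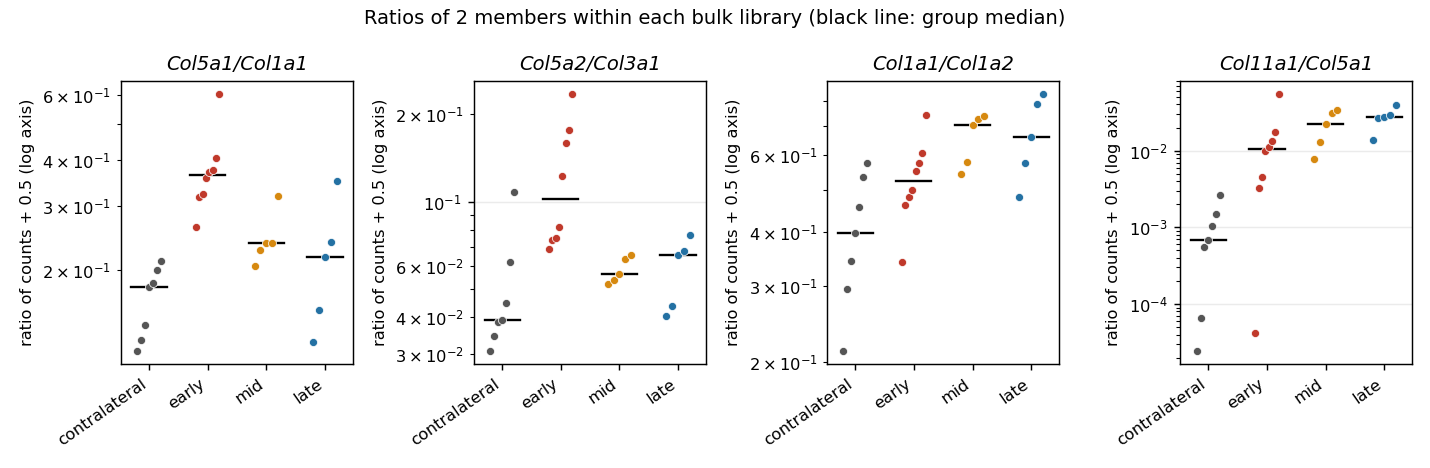
Ratios of members' counts within each bulk library, on log axes, by group, with points ordered by value within a group and lines at the group medians. *Col5a1* per *Col1a1* in early AVFs (0.262 to 0.605) lies above all contralateral veins (0.120 to 0.212), and *Col11a1* per *Col5a1* in mid and late AVFs lies above all of them.

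Over the 25 libraries the major chains varied together (Pearson's r of log2 CPM from 0.959 to 0.976 between *Col1a1*, *Col1a2*, and *Col3a1*), *Col5a1* and *Col5a2* varied together (r = 0.943), and *Col5a3* varied least with the major chains (r from 0.371 to 0.457). The libraries share groups, so these values are descriptions. Outside the members, the genes whose levels were most alike were *Sparc*, which encodes a collagen-binding matricellular protein, for *Col1a1* (r = 0.971, followed by *Ppic* at 0.937 and *Col6a2* at 0.912) and for *Col1a2* (r = 0.952, followed by *Col6a1* at 0.949 and *Col6a2* at 0.929). For *Col3a1* they were *Col6a1*, a chain of type VI microfibrils (r = 0.969), *Sparc* (0.941), and *Col6a2* (0.930), and for *Col5a1* the collagen chaperone gene *Serpinh1* (r = 0.933), *Sparc* (0.908), and *Ppic* (0.902). For *Col5a2* they were *Fstl1* (r = 0.947), *Postn*, which encodes periostin (0.932), and *Igdcc4* (0.897). Those most like *Col5a3* (*N4bp2*, *Ttll5*, and *Dram1*, r from 0.936 to 0.957) and *Col11a1* (*Zfp354a*, *Lgr5*, and *Fam167a*, r from 0.935 to 0.949) completed the list.

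Collagen chains depend on enzymes that modify, fold, cleave, and cross-link them, and a list of 89 such genes (85 tested) was described beside the members. In early AVFs 15 were called higher and 9 lower, in mid AVFs 17 and 5, and in late AVFs 17 and 3, against 12.6%, 6.05%, and 5.33% of all genes called in either direction. The list's median log2 fold change was 0.09, 0.65, and 0.64, beside -0.01, -0.10, and -0.09 over all genes tested. Among the 13 tested genes of hydroxylation and glycosylation, 2 were higher in early and 1 in mid and late AVFs. *P4ha3*, a prolyl 4-hydroxylase subunit, had a median of 0.0876 CPM in contralateral veins and 44.3, 52.6, and 57.6 CPM in early, mid, and late AVFs (log2 fold changes 6.60 ± 0.98, 7.15 ± 1.02, and 6.86 ± 1.01; adjusted *p* = 1.52e-05, 2.59e-05, and 4.62e-05).

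Of the 5 cross-linking genes 2 were called higher at each stage, among them *Lox*, the lysyl oxidase gene, with a median of 156 CPM in native veins and of 686, 687, and 632 CPM in early, mid, and late AVFs. Of 10 genes of collagen breakdown and its inhibitors 4, 5, and 5 were called higher and 1 lower at each stage. *Mmp8*, the neutrophil collagenase, rose at each stage and most in early AVFs (log2 fold change 8.84 ± 1.25, adjusted *p* = 8.44e-06), with medians of 0 CPM in native veins and 51.5, 3.59, and 1.498 CPM in early, mid, and late AVFs. *Mmp13*, another collagenase, also rose at each stage (in late AVFs by a log2 fold change of 4.98 ± 1.17, adjusted *p* = 0.00558). *Col2a1*, the fibrillar collagen of cartilage, had 0 counts in all contralateral veins and medians of 1.42, 10.0, and 5.78 CPM in early, mid, and late AVFs (adjusted *p* = 0.00086, 0.000715, and 0.00136), and no fold is given against a group at 0. Like *Col11a1*, the genes *P4ha3*, *Mmp8*, *Mmp13*, and *Col2a1* passed the low-count filter only through AVF libraries.

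*Pcolce2*, which enhances removal of the C-terminal propeptide, fell at each stage (log2 fold changes -2.85 ± 0.31, -2.82 ± 0.37, and -1.77 ± 0.35; adjusted *p* = 1.43e-07, 7.04e-06, and 0.00128). *Dcn*, encoding the fibril-binding proteoglycan decorin, and *Itga1*, a collagen receptor subunit, fell in early AVFs (-2.71 ± 0.32 and -2.46 ± 0.28; adjusted *p* = 5.44e-07 and 3.38e-07) and in mid AVFs (-1.53 ± 0.36 and -1.73 ± 0.32; adjusted *p* = 0.0052 and 0.00059). *Fkbp7*, which encodes a peptidyl-prolyl isomerase of the endoplasmic reticulum, and *Timp2*, an inhibitor of matrix metalloproteinases, fell at each stage, in late AVFs by log2 fold changes of -1.68 ± 0.29 and -1.36 ± 0.30 (adjusted *p* = 0.000306 and 0.00308). Between early and mid AVFs edgeR called 0 genes of the list, with 31 at an unadjusted *p* under 0.05, and DESeq2 called 13. Between early and late AVFs 8 genes of the list were called higher and 1 lower (3.01% of all genes in either direction): *Timp3* (2.70 ± 0.43), *Prelp* (2.56 ± 0.45), and *Lum* (1.95 ± 0.34) rose most and *Timp1* fell (-2.42 ± 0.44). *Dcn* and *Lum* were also among the 9 fibroblast markers, and *Dcn* made up much of their summed level in contralateral veins.

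The single-cell libraries held 6319 contralateral, 4753 early, and 5821 late cells after filtering, with medians of 2751, 8951, and 15425 unique molecular identifiers (UMIs) per cell. The libraries shared 14 to 19 barcodes pairwise, of which 5 or 6 passed the filter. As each condition had 1 library, no test across conditions was possible, and the intervals given are exact Poisson intervals (95%) that cover counting error only. Cells were clustered without the members, and fibroblasts numbered 1870, 422, and 1937 in the contralateral, early, and late libraries. Different clusters held them, cluster 2 (led by *Inmt*, *Sfrp2*, and *Dcn*) with 1679 of the contralateral fibroblasts and cluster 0 (led by *Ptx3*, *Serping1*, and *Saa3*) with 419 and 1907 of the early and late ones. Fibroblasts carried 96.2%, 88.2%, and 91.0% of all member UMIs in the 3 libraries.

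In fibroblasts every member was higher per UMI in the early than in the contralateral library. *Col1a1* had 18705 CPM (18631 to 18780) in contralateral, 24759 in early, and 10449 in late fibroblasts, and *Col1a2* 17517, 19172, and 11814 CPM. *Col3a1* had 15393, 28543, and 17120 CPM, with 0.823, 1.15, and 1.64 *Col3a1* UMIs per *Col1a1* UMI in the 3 libraries (each UMI marks the end of 1 transcript, whatever its length). *Col1a1* and *Col1a2* of late fibroblasts were thus lower than in the native library, at 0.559-fold (0.556 to 0.561) and 0.674-fold (0.671 to 0.678).

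The minor chains had the larger early folds in fibroblasts. *Col5a1* had 739, 1589.5, and 666 CPM in contralateral, early, and late fibroblasts, 2.15-fold (2.10 to 2.20) and 0.901-fold (0.881 to 0.922) of the contralateral level in the AVF libraries. *Col5a2* had 732, 1849, and 872 CPM (2.52-fold and 1.19-fold), *Col5a3* 83.9, 471, and 181 CPM (5.61-fold, 5.25 to 5.99, and 2.16-fold, 2.03 to 2.30), and *Col11a1* 2.08, 41.0, and 10.6 CPM (19.7-fold, 13.4 to 30.2, and 5.08-fold, 3.45 to 7.79). In fibroblasts *Col5a1* per *Col1a1* UMI was 0.0395 in the contralateral, 0.0642 in the early, and 0.0638 in the late library, and *Col5a3* per *Col5a1* UMI was 0.114, 0.296, and 0.272. *Col5a1* per *Col1a1* was thus nearly equal in early and late fibroblasts, unlike in bulk, where it was lower in late than in early AVFs. Each late level lay below the early one, from 0.258-fold for *Col11a1* to 0.616-fold for *Col1a2*.

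A shallow cluster of 46 contralateral, 494 early, and 418 late cells, with a median of 968 UMIs, was left unnamed although its best marker score was that of fibroblasts, and its members' levels are not included in these values. It held *Col1a1* at 11112 CPM in the early and 5039 CPM in the late library and *Col11a1* at 56.6 CPM (43.9 to 71.7) in the early library.

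**Figure D4:**
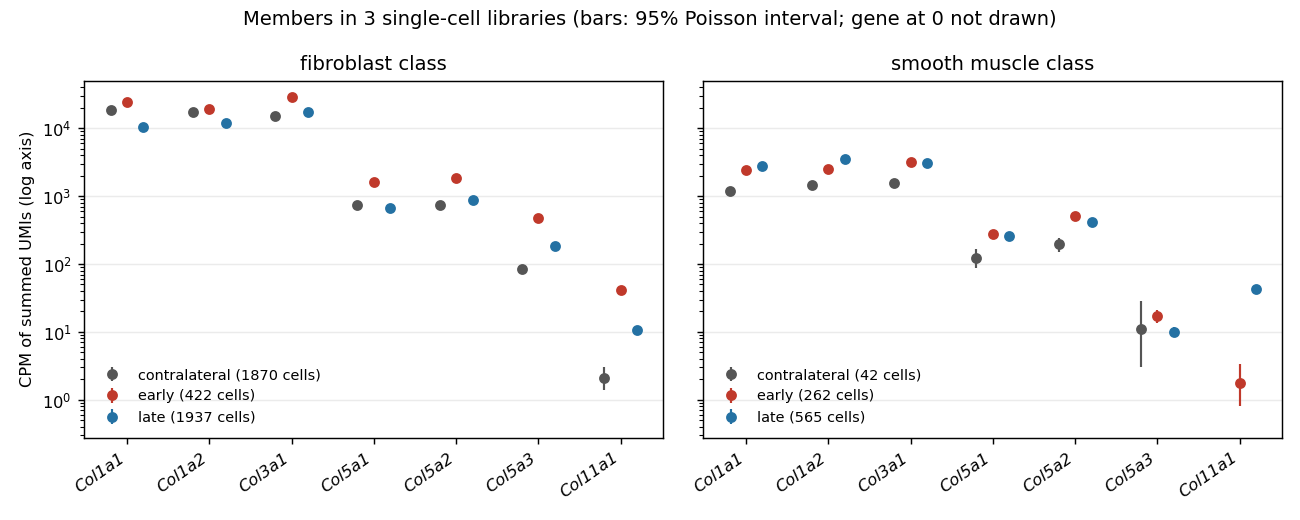
Level of each member (CPM of summed UMIs, log axis) in the fibroblast class and the smooth muscle class of the contralateral, early, and late single-cell libraries; points are library values, bars are exact 95% Poisson intervals for counting error only, and a gene at 0 is not drawn. Fibroblasts stand above smooth muscle cells for the 3 major chains, with *Col1a1* at 18705, 24759, and 10449 CPM against 1206, 2434, and 2735 CPM.

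Smooth muscle cells carried the members at lower levels than fibroblasts in each library, except *Col11a1* in the late library (42.8 against 10.6 CPM). They numbered 42, 262, and 565, and *Col1a1* was 1206, 2434, and 2735 CPM, *Col1a2* 1478, 2475, and 3525 CPM, and *Col3a1* 1542, 3142, and 3057 CPM in the contralateral, early, and late libraries. *Col5a1* was 122 (88.8 to 164), 278, and 263 CPM and *Col5a2* 194, 511, and 417 CPM. Their folds over the contralateral library were 1.67 to 2.63 in the early and 1.98 to 2.39 in the late library for these 5 genes, whereas *Col5a3* (11.1, 16.9, and 10.0 CPM) had intervals that include 1.

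Classes of blood cells, which should not transcribe collagens, gave the background of free RNA, which differed between them. *Col1a1* in the contralateral library was 432 CPM in T cells, 453 in erythroid cells, and 360 in monocytes and macrophages, and 414, 363, and 267 CPM in the early library. The platelet class, whose cells were shallow (medians of 684, 688, and 636 UMIs), had *Col1a1* at 1499 (1387 to 1618), 1229, and 818 CPM in the contralateral, early, and late libraries. Contralateral smooth muscle cells did not exceed it for *Col1a1* or, within counting error, for *Col1a2* (1478 against 1468 CPM), so their levels of both chains were not separated from background, whereas for *Col5a1* (122 against 47.5 CPM) and *Col5a2* (194 against 94.97 CPM) they were higher. Endothelial cells were near the T cell levels for *Col1a1* (445, 281, and 239.5 CPM), but they had *Col5a2* at 218 (202 to 235), 319, and 221 CPM, compared with 20.7, 35.3, and 26.6 CPM in monocytes and macrophages and 94.97, 175, and 190 CPM in the platelet class, the last within counting error of the late endothelial level. Endothelial cells had 5.66, 6.67, and 7.80 *Col5a2* UMIs per *Col5a1* UMI in the 3 libraries, whereas fibroblasts had 0.991, 1.16, and 1.31.

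Schwann cells, the glia of peripheral nerves, carried *Col5a3* and *Col11a1* in the native vein. In the contralateral library 394 Schwann cells had *Col5a3* at 198 CPM (176 to 223), above fibroblasts at 83.9 CPM, and *Col11a1* at 51.6 CPM (40.3 to 65.1). Their 71 *Col11a1* UMIs, in 32 cells, made up 70.3% of that gene's UMIs in the contralateral library, compared with 27 UMIs in 13 fibroblasts. The early and late libraries held 10 and 24 Schwann cells, with 0 and 20 *Col11a1* UMIs.

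In early AVFs *Col11a1* was found mainly in fibroblasts, with 484 UMIs in 69 of 422 cells (16.4%; 0.695% of contralateral and 7.02% of late fibroblasts). Monocytes and macrophages, which should lack the gene, had a UMI in 0.146%, 0.764%, and 0.494% of cells, at median depths of 3200, 12794, and 13326 UMIs, against 4355, 31554, and 25100 UMIs in fibroblasts. Among fibroblasts with at least 1000 UMIs, each thinned to 1000 UMIs, the shares with a *Col11a1* UMI were 0.191%, 4.03%, and 0.827% in the contralateral, early, and late libraries. Shallower fibroblasts were left out of these shares. Few cells carried most of the transcripts: 27 early fibroblasts with at least 5 UMIs held 402 of the 484.

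In the late library a few cells of another class also carried the gene. Of its 1115 *Col11a1* UMIs, 546 (49.0%) were in 5 cells of the smooth muscle class with at least 5 UMIs each, a minimum chosen after the values were seen. These 5 cells had *Col2a1* at 36257 CPM, *Acan*, the cartilage proteoglycan gene, at 1638 CPM, and *Cnmd*, a cartilage glycoprotein gene, at 1111 CPM, while *Myh11*, the smooth muscle myosin heavy chain gene, was 4.75 CPM in them and 2420.2 CPM in the other 560 cells. Those other cells had *Col2a1* at 4.17, *Acan* at 62.8 (799 UMIs, against 345 in the 5 cells), and *Cnmd* at 0.0786 CPM. The cartilage markers *Matn1* and *Matn3* had 2 UMIs each in the 5 cells. Whether these 5 cells belonged to the vessel wall was not tested. Without them the late smooth muscle class had *Col11a1* at 0.629 CPM in place of 42.8 CPM, and fibroblasts held 91.9% of the remaining *Col11a1* UMIs of the late library. In the same 5 cells *Col5a3* had 0 UMIs, and *Col1a2* (11500 CPM) exceeded *Col1a1* (7991 CPM) and *Col3a1* (2830 CPM).

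Fibroblasts were divided into 12 subclusters without the members, 8 of which had at least 20 cells in the contralateral library. Among these, *Col1a1* ranged from 3686 CPM in subcluster 9 (led by *Smpd3*, *Dpp4*, *Pla1a*, *Efhd1*, and *Pcsk6*) to 32675 CPM in subcluster 6 (led by *Gdf10*, *Cxcl14*, *Rbp4*, *Angpt4*, and *Fmo2*). *Col5a1* ranged less, from 411 to 1035 CPM, and *Col5a1* per *Col1a1* UMI from 0.0253 in subcluster 6 to 0.144 (0.134 to 0.155) in subcluster 9.

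Subcluster 3, led by *Thbs4*, *Saa3*, *C1qtnf3*, *Tnc*, and *Cilp*, held 2 contralateral, 248 early, and 306 late cells and the highest *Col11a1* level among AVF subclusters of at least 20 cells, 57.6 CPM in the early and 54.5 CPM in the late library. Its *Col1a1* level was 26220.4 CPM in the early and 10274 CPM in the late library, so the late cells had less *Col1a1* at nearly the same *Col11a1* level. Subcluster 1 (led by *Saa3*, *Hp*, *Rrad*, *Rgs16*, and *Comp*), with 886 late cells, had *Col11a1* at 4.7 CPM, and subcluster 4 (led by *Saa3*, *Cxcl5*, *Hp*, *Rnd1*, and *Ptx3*), with 432 late cells, at 1.2 CPM. In the early library subcluster 1 had 0 UMIs of the gene in 49 cells and subcluster 4 had 13.9 CPM in 60 cells. Early subcluster 11 (led by *Spp1*, *Cxcl5*, *Tnc*, *Saa3*, and *Hp*) had 52.4 CPM (37.3 to 71.6) in 31 cells, within counting error of early subcluster 3. In the 5 late subclusters with at least 20 cells *Col3a1* exceeded *Col1a1*, with 1.38 to 2.33 *Col3a1* UMIs per *Col1a1* UMI. In the contralateral library *Col11a1* was highest in subcluster 12 (led by *Apod*, *Sfrp5*, *Myoc*, *Angptl7*, and *Thbs4*), 94.6 CPM (59.3 to 143) in 26 cells. This level came from 22 UMIs, of which 2 cells held 15.

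**Figure D5:**
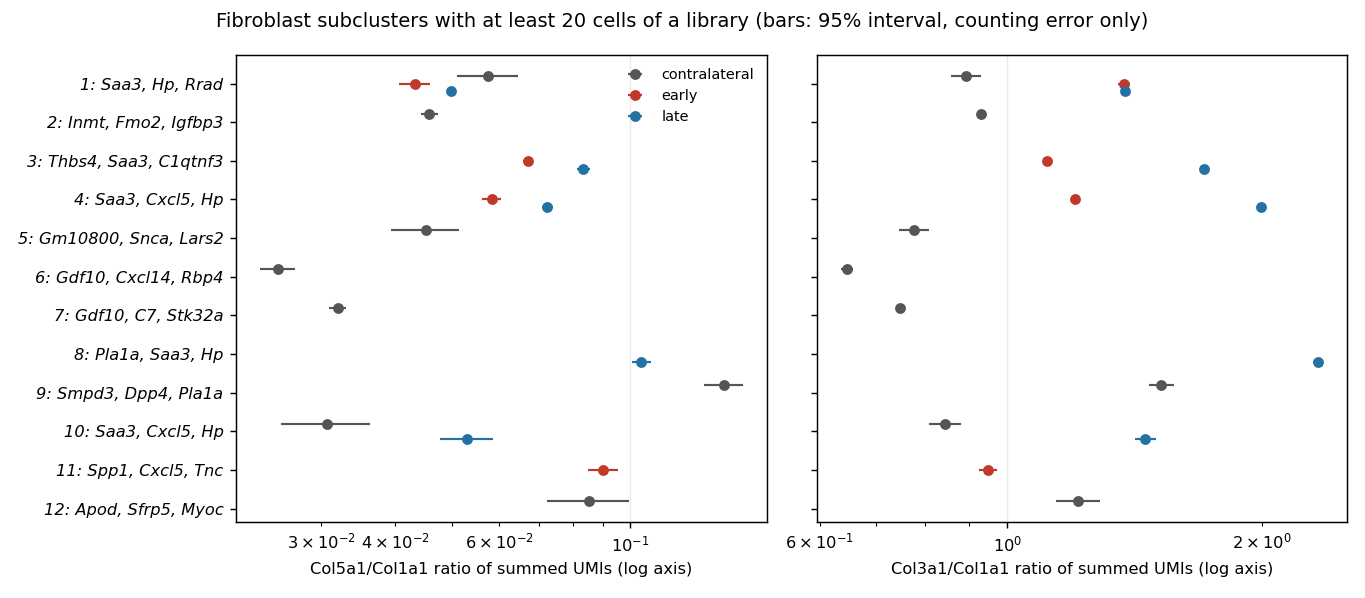
Ratios of summed UMIs, *Col5a1* per *Col1a1* and *Col3a1* per *Col1a1*, in the fibroblast subclusters with at least 20 cells of a library (log axes; colours mark the library, bars are 95% intervals for counting error only). *Col5a1* per *Col1a1* in the contralateral library runs from 0.0253 to 0.144, and *Col3a1* per *Col1a1* in the late library from 1.38 to 2.33.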

How the data were processed

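The authors deposited whole-number read counts per gene for 25 bulk libraries of poly(A)-selected RNA and, for 3 single-cell libraries (Chromium 3′ v3, Cell Ranger 6.0.2), whole-number UMI counts per gene and cell. The submitters' processing notes name STAR, mm10, and GRCm38; the bulk counting method is not given in the sources used here. Members and gene lists were chosen with earlier results of these data known. Of the bulk identifiers, 32210 were named from the single-cell gene list and 19962 from the reference, and 4808 had no symbol.

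Bulk counts were tested with edgeR 4.0.16 (quasi-likelihood, R 4.3.3) in 1 fit of the 4 groups, with TMM scaling, restricted to genes whose counts, normalized by DESeq2 1.42.0, averaged 100 or more, and *p* was adjusted by Benjamini-Hochberg over all 12673 genes. Library totals were first taken over all genes and then over the tested genes; the latter was kept after the call counts of both had been seen, because its counts equalled those of an earlier analysis of these data, and the former is given as an alternative. CPM used the same totals and TMM factors. Groups came from the titles, and nothing states that vessels of a group were handled separately, so *p* measures the spread between these libraries. Ratios were tested by exact permutation over libraries.

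Single cells with 200 to 6000 genes and at most 10% mitochondrial UMIs were kept, scaled to 10000 UMIs, and clustered with scanpy 1.11.5 (2000 variable genes without members, pathway genes, or markers, 12 components, resolution 0.5), and classes were named from marker lists. Scrublet marked 0 of 6319, 2 of 4753 (0.0421%), and 120 of 5821 cells (2.06%), so the caller did not work in 2 libraries, and no cell was removed as a doublet in the values reported. Members were named in full; of the pathway list, the 3 largest rises and falls among calls of each comparison were named, with *Lox* added after its values were seen, and for each member the 3 genes of highest correlation. Scripts were tested on simulated data. Alternatives covered scaling, filters, threshold, sex, samples, pseudocount, and cell filters.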

Additional observations from a re-analysis of the deposited data

Results flagged for a closer look

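Of 56 groups of libraries examined for a value standing apart (Dixon's test at 95%), 8 had one, in each case the highest value. Chance flags about 1 in 20 groups only where groups are independent and normally spread. These values were not log-transformed and the groups share libraries, so the count of 8 cannot be set against that rate. For *Col1a2*, late AVF 17 had 14056 CPM, with the nearest late AVF at 8571 CPM. For *Col11a1*, contralateral vein 633 had 1.59 CPM, with the nearest at 0.562 CPM. Early AVF 7, which also had the lowest levels of *Col1a1*, *Col1a2*, *Col3a1*, *Col5a1*, and *Col5a2* in its group, had the highest *Col5a1* to *Col1a1* ratio (0.605; nearest 0.404), *Col5a3* to *Col5a1* ratio (0.400; nearest 0.214), and *Col11a1* to *Col5a1* ratio (0.0550; nearest 0.0174) of the early AVFs. Mid AVF 12 had the highest *Col5a1* to *Col1a1* ratio of its group, 0.318 (nearest 0.238). Contralateral vein 35, with the lowest *Col1a1*, *Col1a2*, *Col3a1*, and *Col5a1* levels of the native veins, had the highest ratios of *Col5a2* to *Col5a1* (3.30; nearest 1.56) and of *Col5a2* to *Col3a1* (0.108; nearest 0.0621).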

How the results depend on the processing

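No paired analysis was possible because the groups shared no replicate numbers. Under the processing alternatives, counts of members called that came within 1.5 times of those reported are left out below. The cause of the changes was not tested, except that females alone and comparisons of 2 groups alone hold fewer libraries. For ratio calls of mid and late AVFs against contralateral veins, the part of the early libraries is given below. In early AVFs 1 member was called in place of 2 with RLE normalization, with library totals alone, with library totals over all genes, or with sex as a covariate, and 4 at an adjusted *p* under 0.05. In late AVFs 4 were called in place of 2 at an adjusted *p* under 0.05 or by DESeq2. With the 2 groups alone, 0 members were called in early AVFs by edgeR (4 at an unadjusted *p* under 0.05) and 1 in late AVFs, and with females alone 0 at each stage. When 1 library was left out, 1 to 4 members were called in early, 2 to 4 in mid, and 1 to 2 in late AVFs, and 0 between stages.

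Of the pathway genes, 24, 22, and 20 were called in early, mid, and late AVFs against contralateral veins, but 5, 5, and 4 with females alone and 11, 10, and 9 with the 2 groups alone. From early to mid 12 were called at an adjusted *p* under 0.05 and 13 by DESeq2 in place of 0, and from early to late 16 by each in place of 9, with 0 for females alone (18 at an unadjusted *p* under 0.05). Leaving out 1 library gave 21 to 25, 16 to 24, and 11 to 21 against contralateral veins, 0 to 9 from early to mid, 3 to 15 from early to late, and 0 from mid to late. The counts moved by over 1.5 times without early 1, 2, 4, or 10 (3, 3, 4, and 9 from early to mid), without late 16, 17, 19, 23, or 24 against contralateral veins (11, 12, 11, 13, and 11), and from early to late without late 16, 17, 19, or 24 (4, 3, 4, and 4) or early 10 (15).

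Of the 7 ratios, 3, 3, and 2 were called against contralateral veins and 2 in mid and 2 in late against early AVFs. With the deepest early libraries left out, 1 was called in mid and 1 in late AVFs against contralateral veins and 0 in mid or late against early AVFs, and with females alone 0 in each of these 5 comparisons. Leaving out 1 library gave 1 to 4, 1 to 3, and 1 to 2 against contralateral veins, 0 to 2 in mid and in late against early, and 0 to 1 from mid to late AVFs. In mid and late AVFs against contralateral veins, early libraries entered the ratio calls only through the joint adjustment of *p*.

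Directions turned for estimates that were not called. With the deepest early libraries left out, the log2 fold change was 0.11 for *Col1a2* and 0.22 for *Col3a1* in early AVFs and -0.22 for *Col5a3* from early to late AVFs (-0.051 with sex as a covariate), and the log2 ratio of *Col5a2* to *Col5a1* differed by 0.028 from early to late. With females alone the *Col3a1* to *Col1a1* ratio differed by -0.084 from early to mid and -0.22 from early to late. With 1 library left out, log2 fold changes in early AVFs ran from -0.080 to 0.38 for *Col1a1*, -0.44 to 0.025 for *Col1a2*, and -0.36 to 0.13 for *Col3a1*. That of *Col5a3* from early to late ran from -0.13 to 0.22, and from mid to late that of *Col1a1* from -0.46 to 0.063 and of *Col11a1* from -0.29 to 0.13. Log2 ratios from mid to late ran from -0.086 to 0.11 for *Col1a1* to *Col1a2*, -0.13 to 0.054 for *Col3a1* to *Col1a1*, -0.10 to 0.12 for *Col5a3* to *Col5a1*, and -0.13 to 0.10 for *Col5a2* to *Col3a1*. From early to late they ran from -0.032 to 0.15 for *Col3a1* to *Col1a1* and -0.14 to 0.056 for *Col5a2* to *Col5a1*.

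Over all genes, calls against contralateral veins (1599, 767, and 676 in early, mid, and late AVFs) were 2520, 1421, and 1304 at an adjusted *p* under 0.05, 2410, 1398, and 1278 by DESeq2, 3803, 2823, and 2696 with the filterByExpr filter, 3938, 2728, and 2567 with no filter, 665, 403, and 279 with the 2 groups alone, and 368, 225, and 204 with females alone. From early to mid the single call became 482 at an adjusted *p* under 0.05 and 431 by DESeq2, and from early to late the 381 calls became 795 and 733, 596 with the 2 groups alone, 208 with no filter, and 87 with the deepest early libraries left out. Leaving out 1 library gave 0 to 306 from early to mid and 32 to 557 from early to late. With library totals alone 57.1% and 59.1% of calls in mid and late AVFs against contralateral veins were higher in the AVF, in place of 45.2% and 46.6%, and 37.4% in place of 24.1% from early to late, as that scaling placed the median log2 fold change of all genes at 0.09, 0.10, and 0.22 in place of -0.10, -0.09, and 0.01.

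In the single-cell data the percent of member UMIs from fibroblasts (96.2%, 88.2%, and 91.0% in the contralateral, early, and late libraries) was 95.8%, 86.7%, and 91.5% with up to 20% mitochondrial UMIs, 96.3%, 91.5%, and 92.5% with the shallow cluster counted as fibroblasts, and 96.1%, 89.0%, and 91.4% with members and markers left in the clustering. It was 88.4% in the early and 92.4% in the late library without marked doublets and 91.1% in the late library at resolution 1.0. With 1 library per condition, counting error was the only error that could be given, and in the bulk data depth limits *Col11a1* in contralateral veins, where 4 of the 7 libraries held at most 2 counts.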
